A study of Bos taurus with 12 samples.

Results

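The genes described here carry the calcium cycle of the heart muscle cell. They were 10 named genes, chosen by symbol for their place in that cycle: CACNA1C, JPH2, RYR2, TRDN, CASQ2, HRC, ATP2A2, PLN, SLN and SLC8A1. No rule on their values entered the choice, but earlier results of these data were known when it was made. For 9 of the 10 a row was found among the 24616 genes of the table, 1 row each, and all 9 were among the 11374 genes tested. SLN, which encodes sarcolipin, an inhibitor of the calcium pump, matched no symbol and was not analysed here.

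At each heartbeat a small amount of calcium enters through the L-type channel and opens ryanodine receptors in the adjoining membrane of the sarcoplasmic reticulum, the calcium store of the muscle cell, so that a larger amount is released and the filaments contract. Relaxation needs the removal of that calcium. The pump SERCA2 returns most of it to the store, under the brake of phospholamban, and the sodium-calcium exchanger carries the rest out of the cell.

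RNA was sequenced from the right ventricle, which drives blood through the lungs, of 12 wild-type Angus cattle, each library being another animal. The animals were males, castrated as calves, that lived at 2170 m (7120 ft) until slaughter at 13 to 15 months, so all groups shared the chronic low oxygen of that elevation, and no animals from low elevation were analysed here. By serial catheter readings of pulmonary artery pressure (PAP) and clinical signs they had been classed as PH-failure (pulmonary hypertension with right heart failure, n = 3), PH-healthy (pulmonary hypertension without it, n = 3) or low-PAP (hypoxia-tolerant, n = 6). Levels are given in RPKM, reads scaled by exon length and by the depth of the library, so that genes can be compared per length. Fold changes are differences of mean log2(RPKM + 1), ± SE, a scale on which genes of low level change by less than their true ratio. Differences of mean log2 ratios are likewise given ± SE. Levels in RPKM given with ± are the mean ± SD of the group. A gene was called at a Benjamini-Hochberg adjusted p under 0.05 from limma over all tested genes.

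Over the libraries, 14739237 to 31090198 mapped reads were recovered per library, with 68 to 404 reads for JPH2, the member of lowest level, and 28770 to 104537 for ATP2A2. All 12 markers of heart muscle cells were tested and summed to 58860 to 96077 RPKM in PH-failure, 86597 to 95499 in PH-healthy and 86963 to 109513 in low-PAP. The PH-failure median was 94108.5 RPKM, and the lowest PH-failure library stood below every library of the other groups. The 9 skeletal muscle markers summed to at most 6.59 RPKM in any library. Against low-PAP, the middle gene of all those tested had a log2 fold change of 0.21 in PH-failure and 0.18 in PH-healthy, and the members are to be read beside these values.

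Of the 9 measured genes, SLC8A1 and JPH2 rose in PH-failure and in PH-healthy against low-PAP, and PLN fell in PH-failure. Among all tested genes, 28.0% were called higher and 5.79% lower in PH-failure, and 26.6% higher and 8.15% lower in PH-healthy, so 2 of 9 higher and 1 or 0 of 9 lower is near the background. Over all genes that is 3190 higher and 658 lower in PH-failure and 3024 and 927 in PH-healthy, and after quantile normalization 1133 higher and 1418 lower in PH-failure and 1424 and 1622 in PH-healthy. The members' median log2 fold change was 0.06 in PH-failure and 0.21 in PH-healthy. Both comparisons use the same 6 low-PAP libraries. Between PH-failure and PH-healthy 0 of the 9 were called.

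**Figure D1:**
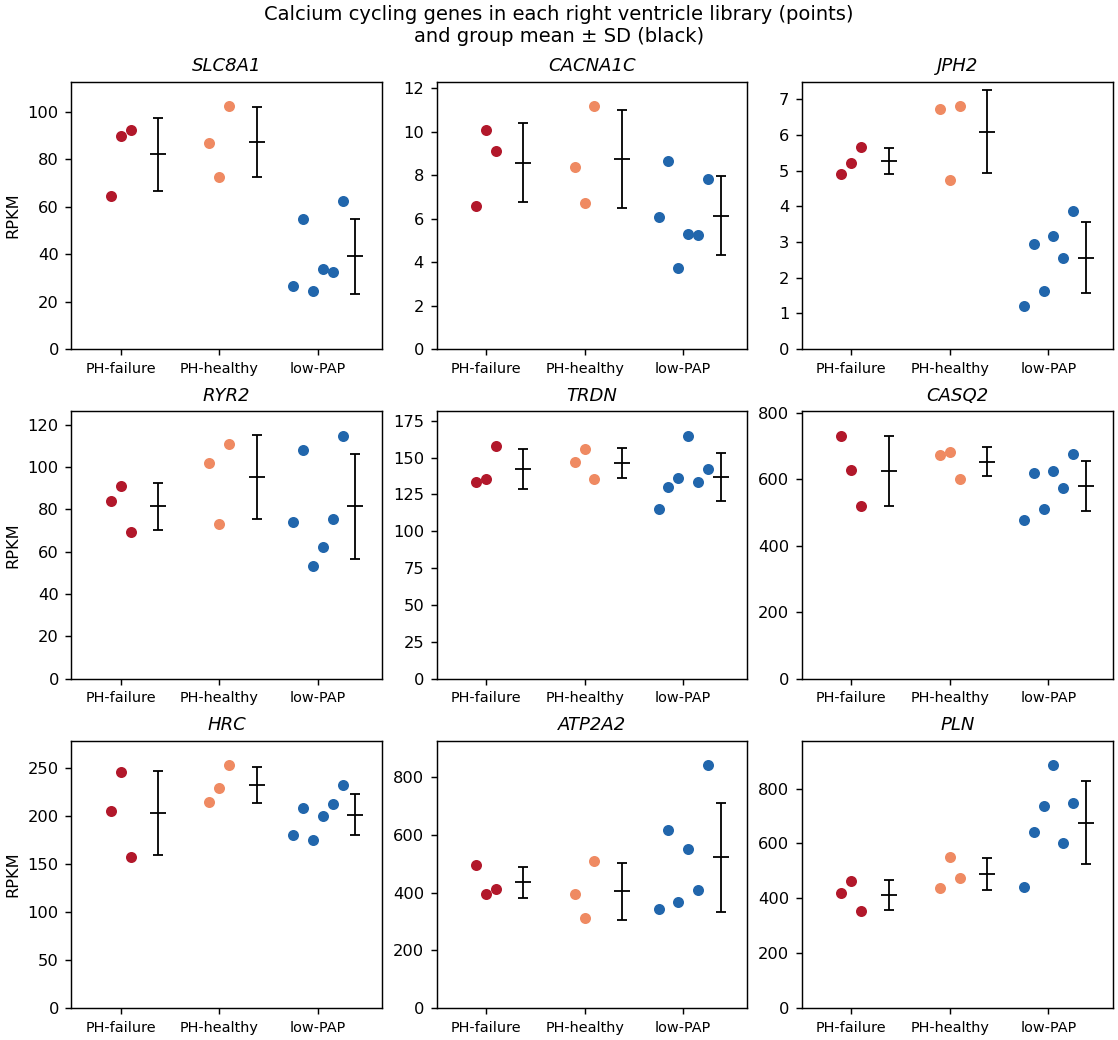
RPKM of each measured calcium cycling gene (vertical axes, from 0) in every library, by group, with mean ± SD in black. SLC8A1 and JPH2 have every PH value above every low-PAP value, and PLN has 2 of 3 PH-failure values below all low-PAP values.

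The members spanned a wide range of levels. In low-PAP ventricles the order by mean RPKM was PLN, CASQ2, ATP2A2, HRC, TRDN, RYR2, SLC8A1, CACNA1C and JPH2. The ranges of PLN, CASQ2 and ATP2A2 overlapped there, as did those of RYR2 and SLC8A1 and of CACNA1C and JPH2. In PH-failure CASQ2 stood first, above ATP2A2 without overlap, ATP2A2 and PLN overlapped, and SLC8A1 and RYR2 had like levels of 82.1 and 81.3 RPKM. In PH-healthy CASQ2 was likewise first, with PLN and ATP2A2 overlapping below it.

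Calcium entry and the junction come first in the cycle. CACNA1C encodes the pore of the L-type calcium channel (ENSBTAG00000010660, chromosome 5, 109152547 to 109417890). It had 6.56, 10.1 and 9.09 RPKM in PH-failure replicates 1 to 3, 8.36, 6.73 and 11.2 RPKM in PH-healthy, and a low of 3.74, a median of 5.69 and a high of 8.63 RPKM in low-PAP. The groups overlapped, with 2 of 3 PH-failure values and 1 of 3 PH-healthy values above all low-PAP values. The log2 fold change was 0.44 ± 0.22 in PH-failure (limma adjusted p = 0.125) and 0.46 ± 0.22 in PH-healthy (limma adjusted p = 0.112), short of the threshold in both.

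JPH2 encodes junctophilin 2, which ties the sarcoplasmic reticulum to the cell membrane so that channel and release site face each other (ENSBTAG00000023002, chromosome 13, 73303265 to 73375173). It had 4.92, 5.22 and 5.65 RPKM in PH-failure, 6.73, 4.74 and 6.80 RPKM in PH-healthy, and 1.21, 2.94, 1.62, 3.18, 2.56 and 3.88 RPKM in low-PAP replicates 1 to 6. Every PH value exceeded every low-PAP value, at means 2.05 times the low-PAP mean in PH-failure and 2.37 times in PH-healthy. Values of the groups lay apart in this way, higher, in 18.6% of all tested genes for PH-failure and 25.0% for PH-healthy. JPH2 rose by 0.86 ± 0.22 on the log2 scale in PH-failure (limma adjusted p = 0.0134) and by 1.03 ± 0.22 in PH-healthy (limma adjusted p = 0.00556). The PH-failure call was lost without PH-failure replicate 3 (0.82, limma adjusted p = 0.0561) and with quantile normalization (0.55, limma adjusted p = 0.0656), alone or with the exon length trend removed. The PH-healthy call held under all 24 alternatives.

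RYR2 encodes the ryanodine receptor through which the store empties (ENSBTAG00000022886, chromosome 28, 9965915 to 10567332). It had 83.7, 90.8 and 69.4 RPKM in PH-failure, 101.9, 72.9 and 111 RPKM in PH-healthy, and 53.3 to 115 RPKM in low-PAP with a median of 74.8. The low-PAP range covered every PH value. The log2 fold change was 0.04 ± 0.23 in PH-failure and 0.26 ± 0.23 in PH-healthy (limma adjusted p = 0.892 and 0.397).

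Inside the store, TRDN encodes triadin, which anchors the calcium-binding protein calsequestrin to the release channel (ENSBTAG00000038849, chromosome 9, 28071826 to 28219689). Its levels were 134, 135 and 158 RPKM in PH-failure, 147, 156 and 136 RPKM in PH-healthy, and 115 to 165 RPKM in low-PAP with a median of 135. TRDN varied least of the members, with a root mean square deviation of 0.13 on the log2 scale over the 12 libraries, and all PH values lay within the low-PAP range. Its log2 fold change was 0.06 ± 0.12 in PH-failure and 0.10 ± 0.12 in PH-healthy (limma adjusted p = 0.719 and 0.533).

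CASQ2 encodes cardiac calsequestrin itself, the main calcium buffer of the store (ENSBTAG00000011500, chromosome 3, 27658861 to 27729416). It had 731, 627 and 519 RPKM in PH-failure, 673, 683 and 602 RPKM in PH-healthy, and 478 to 676 RPKM in low-PAP with a median of 596. One library in each PH group exceeded all low-PAP values. The log2 fold change was 0.11 ± 0.14 in PH-failure and 0.18 ± 0.14 in PH-healthy (limma adjusted p = 0.573 and 0.339).

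HRC encodes the histidine-rich calcium-binding protein of the store, which binds both triadin and SERCA2 (ENSBTAG00000002853, chromosome 18, 56107441 to 56111943). It had 206, 246 and 158 RPKM in PH-failure, 215, 229 and 253 RPKM in PH-healthy, and 175 to 233 RPKM in low-PAP with a median of 204. PH-failure replicate 2 lay above and PH-failure replicate 3 below all low-PAP values. The log2 fold change was -0.01 ± 0.14 in PH-failure and 0.21 ± 0.14 in PH-healthy (limma adjusted p = 0.981 and 0.262).

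ATP2A2 encodes SERCA2, the pump that refills the store (ENSBTAG00000001398, chromosome 17, 56458749 to 56512895). It had 496, 396 and 414 RPKM in PH-failure, 394, 310.3 and 508 RPKM in PH-healthy, and a low of 343, a median of 481 and a high of 842 RPKM in low-PAP. The groups overlapped and low-PAP was the most spread of them, at 522 ± 189.7 RPKM (SD), against 435 ± 53.4 RPKM in PH-failure and 404 ± 99.4 RPKM in PH-healthy. The log2 fold change was -0.19 ± 0.26 in PH-failure and -0.32 ± 0.26 in PH-healthy (limma adjusted p = 0.573 and 0.343), which left a 95% interval of -0.75 to 0.36 in PH-failure.

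PLN encodes phospholamban, the small membrane protein that slows SERCA2 until it is phosphorylated (ENSBTAG00000012931, chromosome 9, 32823611 to 32834377). It had 419, 462 and 353 RPKM in PH-failure, 436, 550.5 and 474 RPKM in PH-healthy, and 441, 642, 735, 885, 600.3 and 746 RPKM in low-PAP replicates 1 to 6. PH-failure replicates 1 and 3 and PH-healthy replicate 1 lay below all low-PAP values, and low-PAP replicate 1 lay among the PH values. PLN fell by 0.69 ± 0.19 on the log2 scale in PH-failure (limma adjusted p = 0.0173), where 2.07% of tested genes had a lower value. Groups without overlap, the PH group lower, were found in 3.74% of tested genes for PH-failure and 9.30% for PH-healthy, and in 0 of the 9 members. In PH-healthy the log2 fold change was -0.44 ± 0.19 (limma adjusted p = 0.0813), so PLN is not shown to differ there. The PH-failure call was lost without PH-failure replicate 3 (-0.58, limma adjusted p = 0.0795) and with quantile normalization (-0.45, limma adjusted p = 0.0907), alone or with the exon length trend removed. It was also lost with the replicate number as a term in the model (limma adjusted p = 0.0993). In PH-healthy a call was gained under 4 of 24 alternatives: without low-PAP replicate 1 (-0.56, limma adjusted p = 0.0211), with median-ratio scaling (-0.68, limma adjusted p = 0.0252), with scaling to reads outside the mitochondrial genome (-0.52, limma adjusted p = 0.0389) and with the exon length trend removed (-0.69, limma adjusted p = 0.0224).

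SLC8A1 encodes NCX1, the sodium-calcium exchanger of the heart cell membrane (ENSBTAG00000013861, chromosome 11, 22443219 to 22797877). It had 64.5, 89.6 and 92.3 RPKM in PH-failure, 86.8, 72.6 and 102 RPKM in PH-healthy, and 26.4, 54.8, 24.6, 33.6, 32.7 and 62.6 RPKM in low-PAP replicates 1 to 6. Every PH value exceeded every low-PAP value, and within low-PAP replicates 2 and 6 stood above the other 4. SLC8A1 rose by 1.12 ± 0.27 on the log2 scale in PH-failure (limma adjusted p = 0.0106) and by 1.21 ± 0.27 in PH-healthy (limma adjusted p = 0.00654), with means 2.10 and 2.23 times that of low-PAP. Of all tested genes, 96.9% had a lower log2 fold change in PH-failure and 97.4% in PH-healthy. The PH-failure call held under all 24 alternatives. The PH-healthy call was lost only with an adipocyte score in the model (1.01, limma adjusted p = 0.0616). That score, the mean log2(RPKM + 1) of the fat cell markers, was 3.33 ± 0.999 (SD) in PH-failure, 1.61 ± 0.0909 in PH-healthy and 2.64 ± 0.756 in low-PAP.

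**Figure D2:**
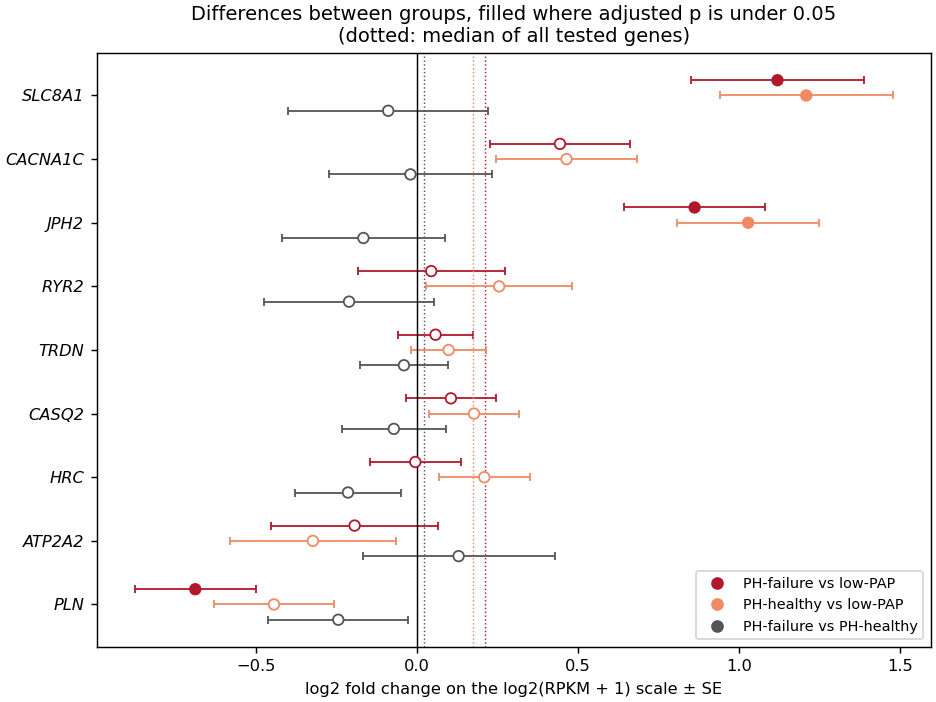
Log2 fold change ± SE (horizontal axis, log2(RPKM + 1) scale) of each member in the 3 comparisons, with filled points where the adjusted p was under 0.05 and dotted lines at the median of all tested genes. SLC8A1 at 1.12 and 1.21 and JPH2 at 0.86 and 1.03 stand to the right of the other members, and PLN at -0.69 and -0.44 to the left.

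PH-failure and PH-healthy were compared directly, since both shared a raised pressure and differed in the clinical signs. None of the 9 members was called by limma, with 0 of 9 at an unadjusted p under 0.05, against 308 of 11374 genes at that p. Over all tested genes 0 were called higher (0%) and 1 lower (0.00879%), and limma-voom on the recovered reads called 0 genes. The values of the 2 groups overlapped for every member, where 3.61% of tested genes lay apart as higher and 2.13% as lower. With 3 animals a group the 95% intervals of the log2 difference were wide: -0.76 to 0.58 for SLC8A1, -0.72 to 0.38 for JPH2, -0.71 to 0.22 for PLN and -0.52 to 0.77 for ATP2A2. These intervals do not show the members to be alike in the 2 groups.

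Extrusion and reuptake compete for the same calcium, and the ratio of their transcripts can be formed within a library, where depth cancels. The RPKM ratio of SLC8A1 to ATP2A2 was 0.130, 0.226 and 0.223 in PH-failure, 0.220, 0.234 and 0.201 in PH-healthy, and 0.0771, 0.0891, 0.0668, 0.0610, 0.0797 and 0.0743 in low-PAP. All 6 PH ratios exceeded all 6 low-PAP ratios, and PH-failure replicate 1 was the lowest of the PH libraries. The mean log2 ratio was higher by 1.34 ± 0.27 in PH-failure and by 1.56 ± 0.10 in PH-healthy, 2.53-fold and 2.94-fold. The 2-sided exact permutation test gave p = 0.0119 for both, the smallest that 84 regroupings allow, and an adjusted p of 0.0357 over 6 tests. Low-PAP replicates 2 and 6, high in SLC8A1, were also high in ATP2A2. The ratio of low-PAP replicate 6 lay among those of the other low-PAP libraries, and that of replicate 2, 0.0891, was the highest of its group.

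The ratio of PLN to ATP2A2, the brake against the pump, was 0.845, 1.17 and 0.853 in PH-failure, 1.11, 1.77 and 0.934 in PH-healthy, and 1.29, 1.04, 1.99, 1.61, 1.46 and 0.886 in low-PAP. The groups overlapped throughout. The log2 difference from low-PAP was -0.50 ± 0.23 in PH-failure (exact permutation p = 0.131, adjusted p = 0.262) and -0.12 ± 0.33 in PH-healthy (exact permutation p = 0.714). Between PH-failure and PH-healthy it was -0.37 ± 0.32 (exact permutation p = 0.3, where 3 against 3 allows no less than 0.1).

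**Figure D3:**
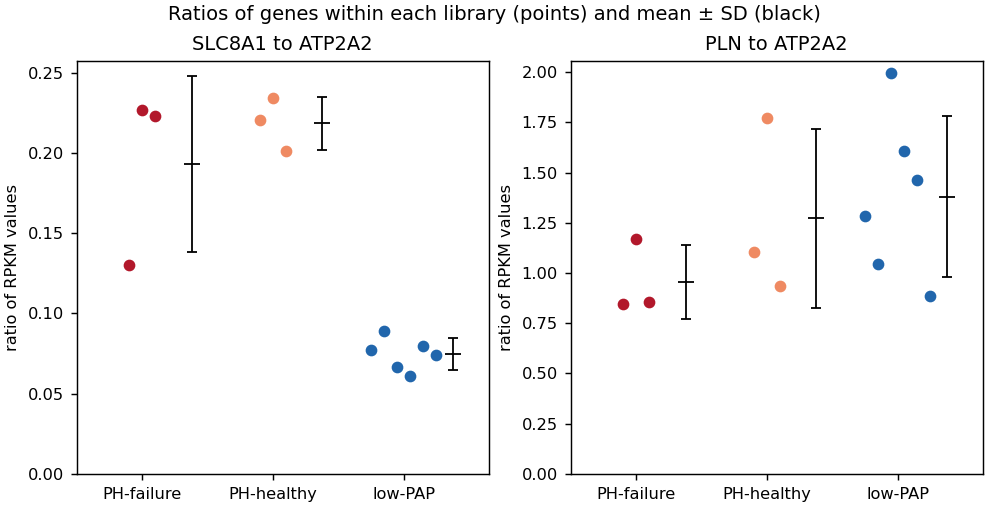
Ratio of RPKM values within each library (vertical axes, from 0) by group, with mean ± SD in black. The SLC8A1 to ATP2A2 ratio is 0.130 to 0.234 in the 6 PH libraries and 0.0610 to 0.0891 in low-PAP, and the PLN to ATP2A2 ratio overlaps between groups.

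Low-PAP replicates 2 and 6 were the 2 highest low-PAP libraries in 4 of 9 members, ATP2A2, RYR2, SLC8A1 and CACNA1C. An alternative chosen after seeing the data left both out. Leaving out the highest low-PAP values raises the fold changes of these 4 genes by construction, so calls gained in this way support nothing. Without them, CACNA1C was called higher in PH-failure (0.65, limma adjusted p = 0.0190) and in PH-healthy (0.67, limma adjusted p = 0.0164), and RYR2 in PH-healthy (0.51, limma adjusted p = 0.0361). SLC8A1 then stood at 1.45 in PH-failure and 1.54 in PH-healthy. Low-PAP replicate 1 was the lowest of its group in ATP2A2, PLN, CASQ2, TRDN and JPH2.

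The labels put the libraries in series 55 or 56, and the headers give each series its own lane, so series and lane cannot be told apart. In series 55 (1 PH-failure, 2 PH-healthy and 3 low-PAP libraries) the log2 difference from low-PAP for SLC8A1 was 1.30 in PH-failure and 1.20 in PH-healthy, and in series 56 (2, 1 and 3 libraries) it was 1.04 and 1.22. For JPH2 these were 0.90 and 0.90 in series 55 and 0.87 and 1.22 in series 56. For PLN they were -0.96 and -0.43 in series 55 and -0.52 and -0.53 in series 56. The directions of these 3 genes were the same in both series, as was that of the SLC8A1 to ATP2A2 ratio, at 1.60 and 1.56 in series 55 and 1.20 and 1.56 in series 56. In PH-failure 4 uncalled members differed in sign between series 55 and 56: HRC (-0.38 and 0.20), CASQ2 (-0.17 and 0.25), RYR2 (-0.16 and 0.14) and TRDN (0.20 and -0.0062).

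Fold changes of all tested genes moved with exon length. In 5 equal groups by length the median log2 fold change in PH-failure went up stepwise, -0.04, 0.11, 0.20, 0.27 and 0.39, from genes of 85 to 1146 bases of exon to genes of 3200 to 103346 bases, and in PH-healthy it was -0.10, 0.07, 0.16, 0.22 and 0.37. TRDN (1134 bases) is in the shortest group, JPH2 (2097) in the third, PLN (2616), CASQ2 (2639), HRC (2959) and SLC8A1 (3017) in the fourth, and ATP2A2 (4228), CACNA1C (6270) and RYR2 (14931) in the longest.

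With the trend removed, an alternative chosen after seeing the data, SLC8A1 stood at 0.82 in PH-failure and 0.93 in PH-healthy (limma adjusted p = 0.0212 and 0.0108), and JPH2 at 0.64 and 0.83 (limma adjusted p = 0.0349 and 0.0106). PLN was then called lower in both, at -0.96 and -0.69 (limma adjusted p = 0.00720 and 0.0224). RYR2 turned to -0.59 and -0.51, called lower in both (limma adjusted p = 0.0314 and 0.0488), and ATP2A2 was called lower in PH-healthy at -0.69 (limma adjusted p = 0.0362). CACNA1C stood at -0.02 and -0.03. The part of exon length in the members' values was not tested further.

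**Figure D4:**
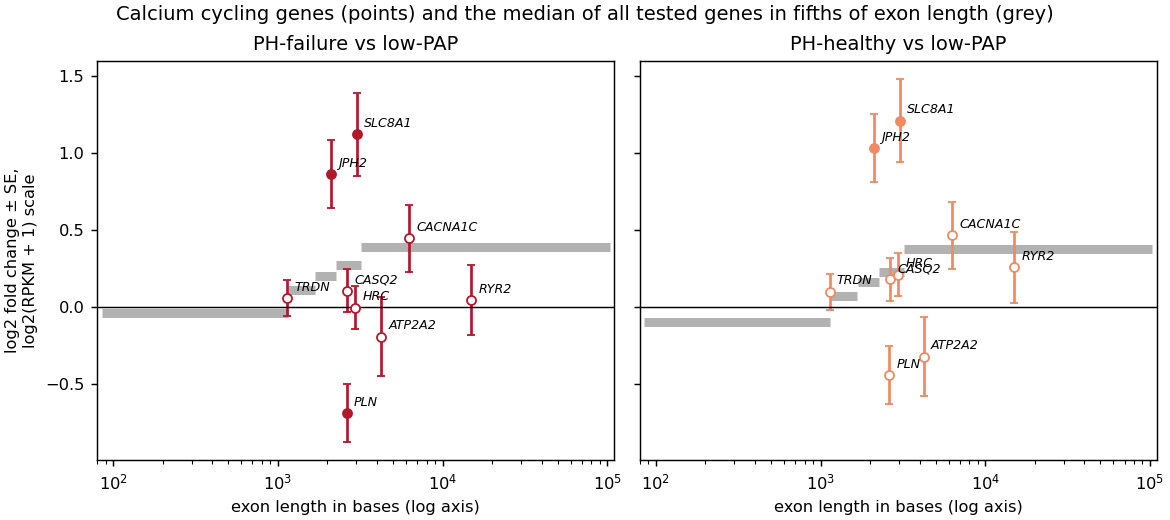
Log2 fold change ± SE of the members (vertical axis, log2(RPKM + 1) scale) against exon length in bases (log axis), with the median of all tested genes in 5 length groups in grey. SLC8A1, JPH2, CACNA1C and TRDN lie above and PLN, ATP2A2, RYR2, CASQ2 and HRC below the grey step of their own length group in both comparisons.

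Markers of several other cell types differed between the groups too. Shares of 28.0% and 26.6% of all tested genes called higher in PH-failure and PH-healthy are the background for these counts. Fibroblast markers were called higher for 7 of 10 in PH-failure and 6 of 10 in PH-healthy, with summed levels of 1029 to 1587 RPKM in PH-failure, 717 to 1330 in PH-healthy and 618 to 903 in low-PAP. Macrophage markers were called higher for 8 of 10 and 3 of 10 (68.1 to 200.4, 72.8 to 104 and 51.0 to 77.7 RPKM summed), smooth muscle markers for 7 of 9 and 3 of 9, and endothelial markers for 5 of 10 and 4 of 10. Of 8 tested T and NK cell markers 0 were called higher and 1, TRAC, was called lower in each comparison. Of 12 heart muscle markers, 1 was called higher and 4 lower in PH-failure, and 2 higher and 2 lower in PH-healthy. The 7 tested markers typical of atrial muscle had a median log2 fold change of 0.12 in PH-failure and 0.20 in PH-healthy, with 1 called higher in PH-failure, NR2F2, and 1, MYL7, called lower in both. NR2F2 had 5.46 ± 0.558 RPKM in PH-failure, 4.09 ± 0.976 RPKM in PH-healthy and 3.39 ± 0.535 RPKM in low-PAP (limma adjusted p = 0.0119 and 0.262). MYL7, a myosin light chain typical of atrial muscle, had 899.9 ± 596 RPKM in PH-failure, 652 ± 158 RPKM in PH-healthy and 4812 ± 1525 RPKM in low-PAP (limma adjusted p = 0.00115 and 0.000407). NPPA, the atrial natriuretic peptide, had 96.3 ± 130.3, 65.2 ± 17.7 and 33.6 ± 33.9 RPKM in PH-failure, PH-healthy and low-PAP (limma adjusted p = 0.416 and 0.220). In such whole-tissue RNA fewer cells of a type and less RNA per cell cannot be told apart, and the part of these markers in the members' differences was not tested.

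The other genes of the pathway were taken from lists that hold none of the 9 members. Of 13 tested genes of uptake and store, 2 rose and 1 fell in PH-failure and 3 rose and 1 fell in PH-healthy, with medians of 0.04 in both and, after median-ratio scaling, -0.23 and -0.20. These counts are near the background of 28.0% higher and 5.79% lower among all tested genes in PH-failure, and 26.6% and 8.15% in PH-healthy. SRL encodes sarcalumenin, a calcium-binding glycoprotein of the store that acts with SERCA2. It had 94.7 ± 17.8 RPKM in PH-failure, 96.3 ± 1.06 RPKM in PH-healthy and 40.2 ± 19.8 RPKM in low-PAP, and rose by 1.34 ± 0.32 and 1.38 ± 0.32 on the log2 scale (limma adjusted p = 0.0107 and 0.00813). S100A1, a calcium-binding protein that stimulates SERCA2, had 112 ± 61.8 RPKM in PH-failure (limma adjusted p = 0.452) and rose in PH-healthy to 270.2 ± 127 RPKM (limma adjusted p = 0.0180), against 76.9 ± 39.6 RPKM in low-PAP. AKAP7, an anchor that brings protein kinase A to phospholamban, fell to 2.61 ± 0.525 RPKM in PH-failure and 2.16 ± 0.499 RPKM in PH-healthy, against 4.38 ± 1.13 RPKM in low-PAP (limma adjusted p = 0.0326 and 0.00894). SEC61A1, a protein channel of the endoplasmic reticulum, rose by 0.97 ± 0.18 and 0.85 ± 0.18.

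Of 12 tested genes of release and the junction, 4 rose in PH-failure and 5 in PH-healthy, and 0 fell. Beside them, 28.0% of all tested genes were called higher and 5.79% lower in PH-failure, and 26.6% and 8.15% in PH-healthy. The list medians were 0.21 and 0.14, or -0.03 and -0.06 after median-ratio scaling. ASPH, whose products include junctin, a partner of triadin and calsequestrin, rose to 18.9 ± 6.92 RPKM in PH-failure and 17.4 ± 2.47 RPKM in PH-healthy, against 7.24 ± 1.03 RPKM in low-PAP (limma adjusted p = 0.00169 and 0.00165). The row sums the products of the gene, so junctin itself cannot be told apart from the enzyme it shares exons with. SPEG, a kinase of the junctional membrane that acts on JPH2, rose by 0.75 ± 0.13 and 0.91 ± 0.13. ITPR1, an inositol trisphosphate receptor, rose by 0.80 ± 0.22 and 0.64 ± 0.22, and ITPR2 rose in PH-healthy by 0.56 ± 0.20 and stood at 0.39 ± 0.20 in PH-failure (limma adjusted p = 0.134). The PH-healthy calls of ITPR1 and ITPR2 held under 8 and 7 of the alternatives, and ITPR2 turned to -0.07 with quantile normalization and the exon length trend removed. BIN1, which shapes the membrane tubules that bear the L-type channels, rose by 0.67 ± 0.16 in PH-failure and 0.47 ± 0.16 in PH-healthy (limma adjusted p = 0.0116 and 0.0426), the second call holding under 8 of 24 alternatives. The counts depended on scaling. Quantile normalization gave 2 higher and 0 lower in each comparison, and median-ratio scaling 4 higher and 0 lower in PH-failure and 2 higher and 1 lower in PH-healthy. With the exon length trend removed there were 1 higher and 0 lower in PH-failure, and 1 higher and 1 lower in PH-healthy. The higher gene was ASPH in both, which kept its calls under all 24 alternatives. SPEG, ITPR1, ITPR2 and BIN1 were thus not called higher in either comparison with that trend removed.

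Of 17 tested genes of entry and extrusion, 9 rose and 0 fell in PH-failure and 10 rose and 2 fell in PH-healthy, with medians of 0.48 and 0.65 beside 0.21 and 0.18 for all tested genes. The shares of all tested genes called were 28.0% higher and 5.79% lower in PH-failure, and 26.6% and 8.15% in PH-healthy. ATP2B1, a calcium pump of the cell membrane, had 8.27 ± 2.86 RPKM in PH-failure, 7.13 ± 0.124 RPKM in PH-healthy and 3.33 ± 0.659 RPKM in low-PAP (limma adjusted p = 0.00184 and 0.00272). CACNA2D1, a subunit that brings L-type channels to the membrane, rose by 0.76 ± 0.21 and 0.96 ± 0.21. These calls held under 18 of 24 alternatives in PH-failure, not with quantile normalization or median-ratio scaling, and under 23 in PH-healthy. CACNB1, a beta subunit of these channels, rose by 0.91 ± 0.18 in PH-failure and 0.76 ± 0.18 in PH-healthy, calls that held under 23 and 19 of 24 alternatives. CACNB1 had means of 3.40 RPKM in PH-failure, 3.09 in PH-healthy and 1.33 in low-PAP. Its relatives on the list, CACNB2 and CACNB3, named after their values were seen, were called in neither comparison. CACNB2 had the higher levels, with means of 16.2, 13.9 and 11.9 RPKM in PH-failure, PH-healthy and low-PAP. TRPM7, a channel kinase, rose by 0.67 ± 0.12 and 0.66 ± 0.12. TRPC6, a cation channel, rose in PH-healthy by 1.14 ± 0.24 and stood at 0.38 ± 0.24 in PH-failure (limma adjusted p = 0.230). The membrane pump ATP2B4 rose in PH-healthy by 0.88 ± 0.31, a call that held under 9 of 24 alternatives, and stood at 0.46 ± 0.31 in PH-failure (limma adjusted p = 0.252). The counts depended on scaling: quantile normalization gave 3 higher in PH-failure and 5 higher in PH-healthy, and removal of the length trend 4 and 6. Of all 11374 tested genes, quantile normalization called 1133 and 1424 higher, and removal of the length trend 1330 and 1594. The 2 genes that fell in PH-healthy, named after their values were seen, were RRAD and REM1, small GTPases that restrain L-type channels. RRAD had 139 ± 28.9 RPKM in PH-failure, 74.1 ± 4.11 RPKM in PH-healthy and 113 ± 23.7 RPKM in low-PAP.

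Of 24 tested kinases, phosphatases and their partners, 7 rose and 4 fell in each comparison, with medians of 0.11 and 0.20, or -0.08 and 0.03 after median-ratio scaling. Over all tested genes the shares were 28.0% higher and 5.79% lower in PH-failure and 26.6% and 8.15% in PH-healthy. Median-ratio scaling turned the balance, to 4 higher and 6 lower in PH-failure and 5 higher and 7 lower in PH-healthy. Quantile normalization gave 6 higher and 5 lower in each comparison, and removal of the exon length trend 4 higher and 5 lower in PH-failure and 6 higher and 5 lower in PH-healthy. HSPB6, a small heat shock protein of muscle that protein kinase A phosphorylates, had 1212 ± 468 RPKM in PH-failure, 1535 ± 419.7 RPKM in PH-healthy and 256 ± 87.6 RPKM in low-PAP, and rose by 2.24 ± 0.30 and 2.62 ± 0.30 (limma adjusted p = 0.000920 and 0.000207). PPP1R1A encodes inhibitor 1 of protein phosphatase 1, the enzyme that dephosphorylates phospholamban. It fell to 19.5 ± 11.1 RPKM in PH-failure and 20.03 ± 2.94 RPKM in PH-healthy, against 67.9 ± 16.8 RPKM in low-PAP (limma adjusted p = 0.00190 and 0.00247). PPP1R1B, a relative of that inhibitor, had 1.92 ± 1.72 RPKM in PH-failure (limma adjusted p = 0.0839) and fell in PH-healthy to 0.578 ± 0.183 RPKM (limma adjusted p = 0.00492), against 3.35 ± 1.29 RPKM in low-PAP. AKAP6, an anchor of protein kinase A, rose by 1.05 ± 0.25 and 1.41 ± 0.25, and CAMK2G, a calmodulin-dependent kinase, by 0.77 ± 0.13 and 0.60 ± 0.13. CAMK2G had means of 3.48 RPKM in PH-failure, 2.99 in PH-healthy and 1.65 in low-PAP. Of its relatives on the list, named after their values were seen, CAMK2B was called higher in both comparisons. CAMK2A and CAMK2D were called in neither, with CAMK2D at 66.1, 74.8 and 69.5 RPKM in PH-failure, PH-healthy and low-PAP. HSPB6 and PPP1R1A kept their direction and call under all 24 alternatives in both comparisons.

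Likeness of profile was measured as the root mean square difference of centred log2(RPKM + 1) over the 12 libraries. SLC8A1 was closest to NFIC (0.0837), TRAK2 (0.0915) and PLEC (0.101), JPH2 to CD99L2 (0.132), MGC142781 (0.141) and KIF1C (0.149), and PLN to ZCWPW2 (0.168), MIF4GD (0.179) and BMP5 (0.184). Among the members themselves, CASQ2 and HRC were the closest pair (0.155), followed by CASQ2 and TRDN (0.183), and SLC8A1 and JPH2 stood at 0.248.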

How the data were processed

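Right ventricle RNA was extracted with Trizol and made into Illumina libraries, per the labels' protocols. The values deposited by the authors are RPKM, per the file headers, in 1 table of 24616 genes and 12 libraries. Not given in the sources used here: the aligner, read counting, strand use, handling of reads shared by gene families, and genome build. Positions are as deposited. The authors' own means, fold changes and p-values were not used.

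Whole reads were recovered from the steps between RPKM values (all 11374 tested genes whole in every library, within 0.05 reads), at a median of 370 reads per tested gene and library. Genes that reached 1 RPKM in 3 or more libraries were tested with limma 3.58.1 in R 4.3.3 on log2(RPKM + 1), as 1 model of the 3 groups with a variance trend and robust moderation (statmod 1.5.0). Ratios were compared with 2-sided exact permutation tests (scipy 1.17.1). Limma was tested on simulated data. The scaling, pseudocount, filter, model terms and libraries were varied as alternatives. The choice of a row by highest level had no effect, since each symbol had 1 row. The labels state no pairing of animals by replicate number.

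The members, the lists and the rule for named genes (all members, up to 4 called genes per list and comparison by size, and 3 nearest profiles per called member) were chosen with earlier results of these data known. Intervals cover the spread between these animals.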

Additional observations from a re-analysis of the deposited data

How the results depend on the processing

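The median log2 fold change of all genes, 0.21 in PH-failure and 0.18 in PH-healthy against low-PAP, was -0.03 and -0.04 after quantile normalization and -0.01 and -0.01 after median-ratio scaling, and the split of 3190 genes higher and 658 lower in PH-failure became 1133 and 1418 or 1435 and 1785, and that of 3024 and 927 in PH-healthy 1424 and 1622 or 1721 and 1968. With reads outside the mitochondrial genome the splits were 2345 and 956, and 2433 and 1278. The cause of the changes that follow was not tested. Members called in PH-failure numbered 1 with quantile normalization, alone or with the length trend removed, and 1 to 3 when single libraries were left out. In PH-healthy they numbered 1 with the adipocyte score, 4 without low-PAP replicates 2 and 6, 5 with the length trend removed and 2 to 3 when single libraries were left out. Genes called numbered 2551 with quantile normalization and 2285 with the length trend also removed in PH-failure, 1109 with the adipocyte score in PH-healthy, and 1540 to 4669 and 1890 to 4643 when single libraries were left out (1540 and 2367 without PH-failure replicates 3 and 2, and 1890, 2383 and 2248 without PH-healthy replicates 1, 2 and 3). Between PH-failure and PH-healthy 1 gene was called, 0 with limma-voom, library series or the adipocyte score, 2 without low-PAP replicates 2 and 6, and 0 to 4 when single libraries were left out. The replicate number as a block gave 1379 genes in PH-failure, 1834 in PH-healthy and 0 between the PH groups, with PLN in PH-failure at -0.53 (limma adjusted p = 0.0993), ATP2A2 at 0.021 and HRC at 0.093. No pairing by number was seen, since 0 of 9 libraries correlated best with their own number (-0.26 to 0.19). So few libraries cannot settle whether the numbers pair the animals.

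Members that were not called changed sign, mostly near 0. Against low-PAP in PH-failure, HRC was 0.0092 with quantile normalization, 0.061 with the adipocyte score, 0.062 without low-PAP replicates 2 and 6 and -0.15 to 0.16 leaving out single libraries. RYR2 was -0.22 with median-ratio scaling, -0.038 outside the mitochondrial genome, -0.59 with the length trend removed, -0.30 with quantile normalization as well and -0.065 to 0.15 leaving out single libraries. CASQ2 was -0.17 with median-ratio scaling and -0.17 with the length trend removed (-0.013 to 0.23 leaving out single libraries), TRDN -0.21, -0.025 outside the mitochondrial genome and -0.0094 with the length trend removed (-0.018 to 0.11), ATP2A2 0.075 without low-PAP replicates 2 and 6, and CACNA1C -0.021 with the length trend removed and -0.012 after quantile normalization as well. In PH-healthy, median-ratio scaling gave -0.060 for CASQ2, -0.14 for TRDN and -0.028 for HRC, and removal of the length trend -0.066 for CASQ2, -0.060 for HRC, -0.51 for RYR2 and -0.026 for CACNA1C, with -0.21 and -0.017 for RYR2 and CACNA1C after quantile normalization as well. Quantile normalization added a call of CASQ2 there (0.54, limma adjusted p = 0.0282). Between the PH groups the adipocyte score gave 0.12 for RYR2, 0.24 for SLC8A1 and 0.36 for CACNA1C, and the length trend 0.0042 and, with quantile normalization, 0.0056 for CACNA1C. Leaving out single libraries gave -0.046 to 0.31 for ATP2A2, -0.19 to 0.056 for CASQ2, -0.12 to 0.0073 for TRDN, -0.21 to 0.074 for SLC8A1 and -0.18 to 0.15 for CACNA1C.

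The log2 ratio of SLC8A1 to ATP2A2 was 1.20 to 1.60 in PH-failure and 1.50 to 1.62 in PH-healthy when single libraries were left out, and 1.40 and 1.62 without low-PAP replicates 2 and 6 (exact permutation, adjusted p = 0.0571 in both). With fewer regroupings the adjusted p was 0.0536 to 0.107. Between the PH groups that ratio was -0.36 to 0.043, and the PLN to ATP2A2 ratio in PH-healthy against low-PAP was -0.39 to 0.074. Depth limits JPH2 most, at 68 reads in 1 low-PAP library.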

Other observations

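Of 12 tested mitochondrial genes, 2 rose and 1 fell in PH-failure and 2 rose and 2 fell in PH-healthy, where 28.0% and 26.6% of all tested genes were called higher and 5.79% and 8.15% lower. Quantile normalization gave 0 higher and 1 lower in PH-failure and 2 and 2 in PH-healthy, and median-ratio scaling 0 and 2 in PH-failure and 1 and 2 in PH-healthy. MCU, the pore of the mitochondrial calcium uniporter, had 11.03 ± 3.93 RPKM in PH-failure, 10.2 ± 0.273 RPKM in PH-healthy and 5.84 ± 1.66 RPKM in low-PAP (limma adjusted p = 0.0226 and 0.0261), and lost both calls under each of these scalings. SMDT1, a small subunit that the uniporter needs to open, fell to 159 ± 26.9 RPKM in PH-failure and 150.6 ± 1.82 RPKM in PH-healthy, against 216 ± 26.5 RPKM in low-PAP (limma adjusted p = 0.0224 and 0.0122). LETM1, an inner membrane ion exchanger, rose by 0.60 ± 0.16 and 0.71 ± 0.16 on the log2 scale. EFHA1, an older symbol of the uniporter gatekeeper MICU2, fell in PH-healthy by 0.64 ± 0.11 and stood at -0.26 ± 0.11 in PH-failure (limma adjusted p = 0.0874).

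Of 6 tested calcium-binding genes of the cytosol, 1 rose and 0 fell in PH-failure and 2 rose and 1 fell in PH-healthy. Over all tested genes the shares were 28.0% higher and 5.79% lower in PH-failure, and 26.6% and 8.15% in PH-healthy. S100A10 rose in both comparisons (113 ± 16.1 RPKM in PH-failure, 129 ± 58.7 RPKM in PH-healthy and 63.7 ± 10.9 RPKM in low-PAP). S100A1, also on the list of the store, rose in PH-healthy. TNNC1, the calcium sensor of the thin filament, had 9289 ± 987 RPKM in PH-failure (limma adjusted p = 0.0737), 8756 ± 1343 RPKM in PH-healthy (limma adjusted p = 0.0361) and 12537 ± 2219.9 RPKM in low-PAP, and its direction in PH-healthy turned, to 0.08, with quantile normalization and the exon length trend removed.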
